A study of Mus musculus with 8 samples.

Results

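Simple keratins and desmosome genes were examined as a set of 10 of the 55558 Ensembl genes in the count table, chosen by gene symbol: the keratin genes Krt7, Krt8, Krt18 and Krt19, the desmosome genes Dsp, Dsg2, Dsc2, Pkp2 and Jup, and the epithelial adhesion gene Epcam. RNA was sequenced from 3 libraries of mK4 cells and 3 libraries of mK3 cells, and 1 library of each line was made by ATAC-seq, which cuts accessible DNA with a transposase. Both are mouse kidney lines, labelled wild type and untreated, and were kept in the same serum-containing medium. The labels call mK4 metanephric mesenchyme that has differentiated towards epithelium, and mK3 metanephric mesenchyme that has not been induced. Each is 1 line, the labels do not say whether its libraries came from separate cultures, so p-values rest on differences among libraries that may be technical only. In RNA from bulk cultures, fewer cells of a type and less RNA per cell cannot be told apart.

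Keratins are intermediate filament proteins of epithelia. A type II chain such as Krt7 or Krt8 pairs with a type I chain such as Krt18 or Krt19, and single-layered epithelia, renal tubules and ureteric bud derivatives included, are known for these simple keratins. Desmosomes are the junctions that anchor those filaments: the cadherins Dsg2 and Dsc2 bind the neighbouring cell, the armadillo proteins plakoglobin (Jup) and plakophilin-2 (Pkp2) sit on their tails, and desmoplakin (Dsp) ties the plaque to the filaments. Epcam is a surface adhesion protein of most simple epithelia.

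The set split sharply by level. Only Pkp2 and Jup were well expressed, in both lines, and both were higher in mK4. Krt18, Dsg2 and Dsc2 had 0 counts in all 6 libraries, and Krt8, Dsp, Epcam, Krt7 and Krt19 had at most 216 counts (1.74 CPM, counts scaled to a common library size) in any library. Of the 10 members, 4 passed the filter on low counts (Krt7, Krt19, Pkp2 and Jup), against 63.2% of protein-coding genes, and 3 of 10 were at 0 throughout, against 25.2% of protein-coding genes. Of the 4 that were tested, edgeR's quasi-likelihood test called 2 higher in mK4 and 0 lower at an adjusted p under 0.05, where 20.8% of all 20405 tested genes were called higher and 19.5% lower (40.3% in either direction). Krt19, lower in mK4, had an edgeR p of 0.0441 before adjustment and 0.0932 after it, so edgeR did not call it. DESeq2 called Krt19 lower at an adjusted p under 0.05, as it did 23.7% of genes.

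**Figure D1:**
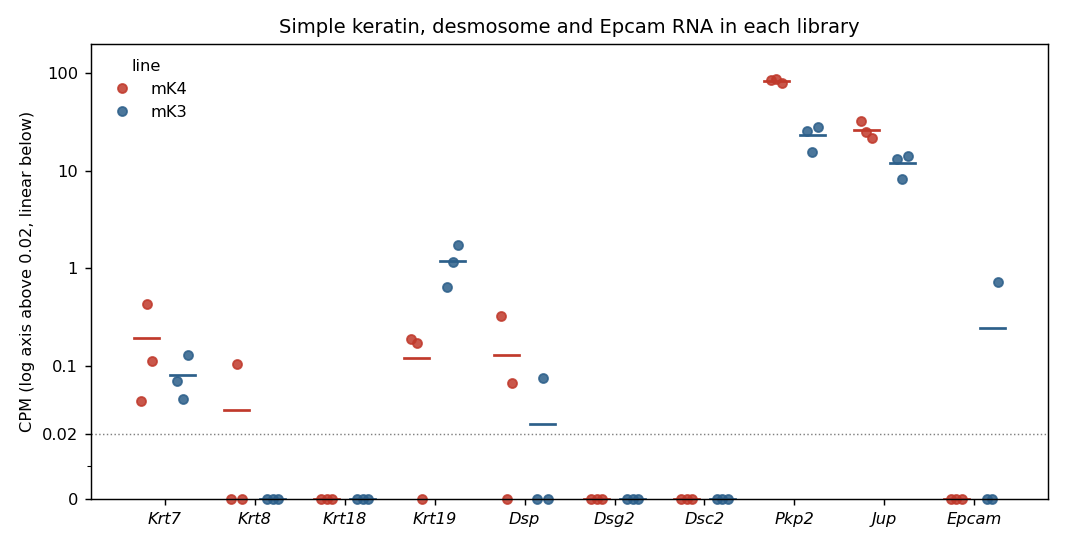
CPM (counts scaled to a common library size) of each member in each RNA library, with mK4 in red left of mK3 in blue, 1 point per library and a line at the mean, on an axis that is logarithmic above 0.02 CPM (dotted line, about 3 counts) and linear below. Pkp2 and Jup lie above 8 CPM in every library, Krt19 is the one member whose mK4 libraries all lie below those of mK3, and Krt18, Dsg2 and Dsc2 lie at 0.

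Pkp2, the plakophilin that recruits desmoplakin to the plaque, had 11729, 13280 and 11901 counts in the mK4 libraries, against 3668, 2062 and 3490 in the mK3 libraries. The lines did not overlap, as was the case with mK4 higher for 28.8% of tested genes. Its level was 84.1 ± 4.26 CPM in mK4 and 23.1 ± 6.61 CPM in mK3 (SD, n = 3 each). The difference was 3.65-fold (log2 1.87, SE 0.23, adjusted p = 0.00122 by edgeR), and 9.96% of tested genes had a larger log2 fold change.

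Jup encodes plakoglobin, which binds desmosomal cadherins and, like beta-catenin, classical cadherins of adherens junctions. It had 4392, 3812 and 3264 counts in the mK4 libraries, against 1904, 1101 and 1756 in the mK3 libraries, again without overlap. Its level was 26.3 ± 5.33 CPM in mK4 and 11.9 ± 3.14 CPM in mK3 (SD, n = 3 each). The difference was 2.21-fold (log2 1.14, SE 0.25, adjusted p = 0.0125 by edgeR), larger than the spread between libraries.

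Both genes were lowest in mK3 replicate 2 among the mK3 libraries. The ratio of Pkp2 to Jup counts within a library, which no scaling between libraries can change, was 2.67, 3.48 and 3.65 in mK4 and 1.93, 1.87 and 1.99 in mK3. Pkp2 was thus 1.68-fold further above Jup in mK4 (two-sided exact permutation test, p = 0.1, the smallest p that 3 against 3 libraries can give). These are ratios of reads and not of molecules, since counts were not divided by transcript length. Set against relatives outside the 10 genes, the ratio of Jup to Ctnnb1 (beta-catenin) was 0.265, 0.218 and 0.184 in mK4 and 0.0929, 0.0544 and 0.0936 in mK3, and the ratio of Pkp2 to Pkp4 was 4.02, 5.79 and 3.44 in mK4 and 1.40, 0.955 and 1.84 in mK3. Both ratios were higher in every mK4 library than in every mK3 library (exact permutation p = 0.1 each, the smallest possible). The levels of Jup, Ctnnb1, Pkp2 and Pkp4 in each library already fixed this outcome. Both ratios thus restate those levels and add no support for a difference. These 3 ratios were chosen after the levels had been seen, and each p equals 0.1 after adjustment over the 3.

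**Figure D2:**
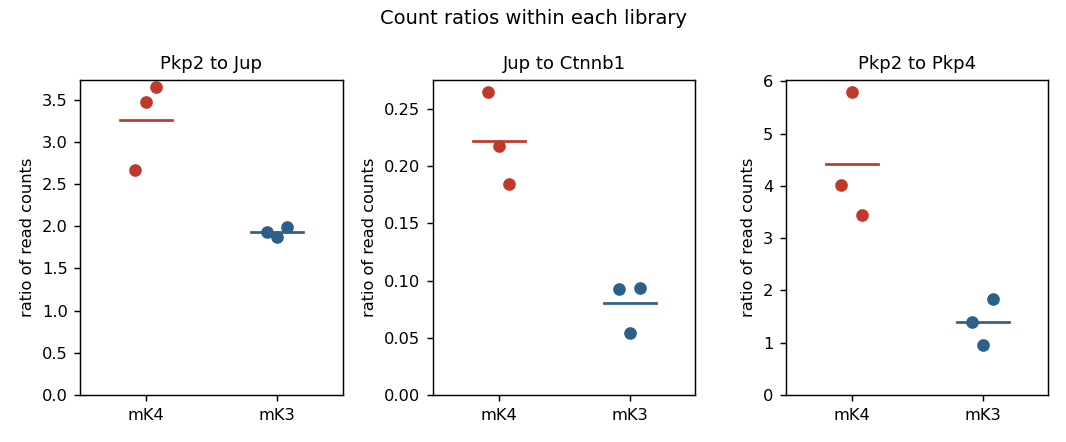
Ratio of read counts of 2 genes within each RNA library (vertical axes from 0), for Pkp2 to Jup, Jup to Ctnnb1 and Pkp2 to Pkp4, with mK4 left of mK3, 1 point per library and a line at the mean. In each panel the 3 mK4 libraries lie above the 3 mK3 libraries, and the mK3 ratios of Pkp2 to Jup lie between 1.87 and 1.99.

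Across the 6 libraries the log2 CPM of Pkp2, which had the highest mean CPM of the tested members with no division by length, ran most closely with those of Fras1 (Pearson r = 0.9985), Xlr, Cadm4, Pard3 and Nav3 (r = 0.9967). The points are 3 libraries of each line, so any gene that separates the lines scores high, and 63 of 13840 tested protein-coding genes had an r over 0.99 with Pkp2.

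The desmosomal partners of these armadillo genes were barely detected. Dsp, the plaque protein that reaches the keratin filaments, had 44, 0 and 10 counts in the mK4 libraries, against 0, 10 and 0 in the mK3 libraries, and the lines overlapped. The cadherin genes Dsg2 and Dsc2 had 0 counts in every library. A count of 0 allows up to 3 counts, which is 0.0197 to 0.022 CPM in mK4 and 0.0209 to 0.0242 CPM in mK3, and these limits cover counting error only. None of the 3 genes was high enough to be tested.

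The simple keratins were at the edge of detection in mK4, the line labelled as mesenchyme that has differentiated towards epithelium. Krt8 had 0, 16 and 0 counts in the mK4 libraries and 0 in each mK3 library. Krt18, its usual partner chain, had 0 counts in all 6 libraries. Krt8 has a processed pseudogene, Krt8-ps, which had 0 counts as well, and the treatment of reads that match several copies is unknown, so a count of 0 for either keratin is uncertain.

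Krt7, a type II chain of ducts and urothelium, had 6, 65 and 17 counts in the mK4 libraries, against 10, 6 and 16 in the mK3 libraries. The groups overlapped, and the difference was within the spread (log2 1.26, SE 0.97, adjusted p = 0.36 by edgeR). Its sign rested on mK4 replicate 2, without which the log2 fold change was -0.03.

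Krt19, a type I chain of ducts and of mesothelium, was the one member that was lower in mK4 in every library. It had 26, 26 and 0 counts in the mK4 libraries, against 92, 153 and 216 in the mK3 libraries, an absence of overlap with mK4 lower that 27.2% of tested genes showed. Its level was 0.12 ± 0.105 CPM in mK4 and 1.18 ± 0.55 CPM in mK3 (SD, n = 3 each), with a log2 fold change of -3.28 (SE 1.30). The adjusted p was 0.0932 by edgeR, 0.0187 by DESeq2 and 0.0234 by edgeR without mK4 replicate 3, so the call depended on the tool and on 1 library, and edgeR's adjusted p ranged up to 0.214 over the other alternatives.

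Epcam had 0 counts in each mK4 library, against 0, 0 and 90 in the mK3 libraries. Counts held in 1 library are not rare at this depth: of 1044 protein-coding genes with 50 to 150 counts over the 6 libraries, 17.5% had all of them in 1 library and 8.05% had counts in all 6. Epcam was not tested.

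Starts of 6 members are in the RefSeq promoter table (GRCm38.p6, which is mm10): Krt7, Krt8, Krt18, Dsp, Jup and Epcam. Krt19, Dsg2, Dsc2 and Pkp2 are not. Within 1 kb of its start, Jup had a peak in mK4 and in mK3, and the other 5 had none in either line. Among protein-coding genes high enough to be tested, 72.0% had a start peak in mK4 and 65.7% in mK3, and among those too low to be tested 2.52% and 1.66% had one. The Jup peak at chr11:100397654-100398176 in mK4 was 8.39-fold over background with a -log10 q of 56.4, and that at chr11:100397731-100398107 in mK3 was 8.35-fold with a -log10 q of 46.7. A further peak inside Jup at chr11:100387964-100388220 (3.21-fold) was listed in mK4 without a partner in mK3. Fold and q are the authors' own values for a peak, and with 1 library a line they carry no replicate check.

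To set a promoter with a start peak beside others, 300 bases are given, from 250 before to 50 after the start. Jup (chr11:100397741-100398040, minus strand) had a start peak in both lines that spanned the whole window. Dsp (chr13:38151044-38151343, plus strand), Krt8 (chr15:102004293-102004592, minus strand) and Krt18 (chr15:102027966-102028265, plus strand) had none listed. The lack of a listed peak does not show that a promoter is closed. Sequences are from RefSeq, GRCm38.p6, 5′ to 3′ on the gene's strand, and capitals mark the motifs named after them.
Jup: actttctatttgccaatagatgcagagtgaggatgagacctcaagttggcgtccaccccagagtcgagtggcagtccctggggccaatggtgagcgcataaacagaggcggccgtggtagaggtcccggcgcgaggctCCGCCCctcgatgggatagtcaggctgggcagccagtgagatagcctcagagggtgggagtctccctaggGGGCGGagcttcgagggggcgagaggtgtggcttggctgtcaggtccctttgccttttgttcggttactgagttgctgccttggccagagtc
Dsp: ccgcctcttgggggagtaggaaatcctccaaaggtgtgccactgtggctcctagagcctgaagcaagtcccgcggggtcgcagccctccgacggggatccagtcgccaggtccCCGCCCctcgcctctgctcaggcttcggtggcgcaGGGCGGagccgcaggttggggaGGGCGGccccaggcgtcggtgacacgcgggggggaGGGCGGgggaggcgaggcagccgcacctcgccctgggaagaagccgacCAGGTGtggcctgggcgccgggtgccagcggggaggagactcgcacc
Krt8: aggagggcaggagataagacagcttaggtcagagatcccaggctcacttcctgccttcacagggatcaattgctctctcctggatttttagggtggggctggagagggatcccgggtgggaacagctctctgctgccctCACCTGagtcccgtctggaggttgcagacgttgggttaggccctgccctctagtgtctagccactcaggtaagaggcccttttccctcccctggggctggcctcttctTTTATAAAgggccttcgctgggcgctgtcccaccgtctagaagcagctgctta
Krt18: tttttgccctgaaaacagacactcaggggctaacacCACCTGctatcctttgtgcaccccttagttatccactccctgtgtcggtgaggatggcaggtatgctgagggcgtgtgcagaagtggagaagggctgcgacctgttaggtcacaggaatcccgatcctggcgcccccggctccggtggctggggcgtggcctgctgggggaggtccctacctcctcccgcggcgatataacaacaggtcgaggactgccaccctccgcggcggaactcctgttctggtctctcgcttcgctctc

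Motifs were searched on both strands. The GC box GGGCGG, bound by Sp1-type factors, occurred 2 times in the Jup window and 4 times in that of Dsp, and in neither Krt8 nor Krt18. Krt7 also had 4 and Epcam 1, so 4 of the 6 member windows held it. It is found in 35.7% of the 32851 promoter windows in the table. The E-box CAGGTG, a form bound by Snail and Zeb factors, occurred 1 time each in Dsp, Krt8 and Krt18 and not in Jup, and 20.2% of all windows hold it. Krt7 also had 1 and Epcam 2, so 5 of the 6 member windows held it. The Krt8 window had TATAAA on both strands in 1 overlapping run, a motif of 13.6% of windows. None of the 6 windows held the AP-1 motif TGANTCA (7.81% of windows) or the Grainyhead-like motif AACCNGTT (2.09%). The Dsp window was the richest in G and C of the 6, at 73.0%, and Epcam's the poorest, at 57.0%, with 60.7% for Jup, so the window with the start peak lay between windows without one. The median over all 32851 windows was 52.7%, below each of the 6. The part of base composition in the motif shares was not tested.

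Pkp2 (chr16:16213345-16272712) had 4 peaks inside the gene in mK4 and 2 in mK3. The strongest mK4 peak, at chr16:16224450-16225005, was 9.61-fold over background, and its mK3 partner at chr16:16224454-16224851 was 4.75-fold. A second shared peak at chr16:16216995-16217273 was 7.0-fold in mK4, and its partner in mK3 was 4.74-fold. The peaks at chr16:16213155-16213464, which overlaps the lower-coordinate end of the gene (3.12-fold, -log10 q 5.56), and at chr16:16216035-16216329 (4.87-fold) were listed in mK4 without a partner in mK3. The mK4 list holds 34756 peaks and that of mK3 22516, and the part of this difference in peaks listed for 1 line was not tested.

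Dsc2 had 1 peak inside the gene in each line, 6.29-fold over background in mK4 and 6.17-fold in mK3. A peak 6.18 kb beyond the higher-coordinate end of Dsp was shared by both lines, 5.27-fold in each. A peak 3.47 kb below the lower-coordinate end of Dsg2 (4.56-fold) was listed in mK4 without a partner in mK3. The nearest peak to Krt19 lay 19.89 kb from the gene in mK4 (4.46-fold). Krt7 and Epcam had no peak within 20 kb in either line. Between Krt8 and Krt18, which lie next to each other on chromosome 15, mK4 had peaks at chr15:102010609-102011246 (4.39-fold) and chr15:102016059-102016457 (6.60-fold, -log10 q 29.2) without a partner in mK3, and mK3 had 1 at chr15:102017927-102018126 (2.80-fold). These lie over 5 kb from both genes, and neither gene had a peak at its start or within 5 kb.

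**Figure D3:**
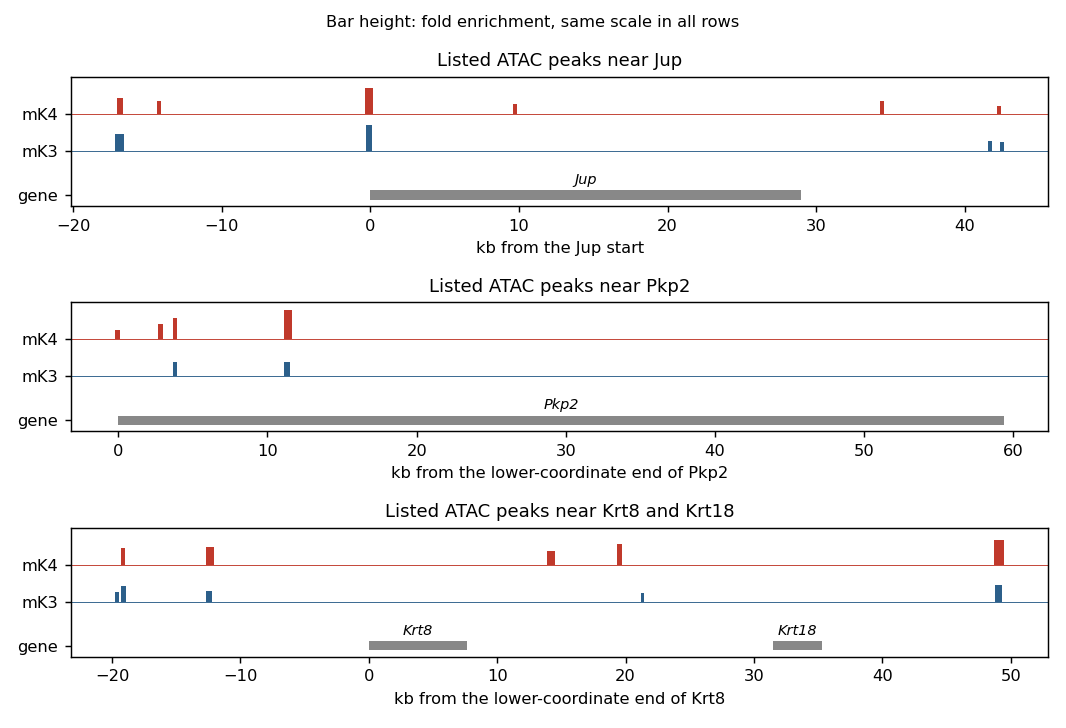
Peaks listed by the authors within 20 kb of Jup, Pkp2 and the Krt8-Krt18 pair, with mK4 above mK3, position in kb on the horizontal axis (from the Jup start, or from the lower-coordinate end of Pkp2 or Krt8) and bar height giving fold enrichment on 1 scale. The Jup start carries a peak in both lines, Pkp2 has 4 peaks in mK4 and 2 in mK3, and Krt8 and Krt18 carry none.

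Krt7, Krt8 and Krt18 share chromosome 15, where the median log2 fold change (mK4 over mK3) of 683 tested genes was -0.50 and 38.8% were lower in mK4. The medians were -0.04 on chromosome 11 (Jup and Krt19), -0.03 on chromosome 16 (Pkp2), 0.05 on chromosome 13 (Dsp), -0.18 on chromosome 17 (Epcam) and -0.22 on chromosome 18 (Dsg2 and Dsc2). The log2 fold changes of Jup, Pkp2 and Krt7 (1.26, not called) lay above the medians of their chromosomes. That of Krt19 (-3.28, not called) lay below the median of its chromosome. The part that chromosome 15 plays in the keratin values was not tested.

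Genes of other desmosome proteins were mostly low as well. Of 14 listed, 6 were tested, 0 were higher and 1 was lower in mK4, and 6 were at 0 in all libraries, among them Dsg1a, Dsg1b, Dsg1c, Dsg4 and Dsc1. The median log2 fold change of the tested genes was 0.94, beside 0.02 over all tested genes. It lay between the values of Ppl (0.30, SE 1.76) and Pkp3 (1.59, SE 0.64), neither of them called. Cdsn, which encodes the adhesive protein corneodesmosin of cornified epithelium, was at 0.213 ± 0.0831 CPM in mK4 and 4.15 ± 1.28 CPM in mK3 (log2 -4.28, adjusted p = 0.000564 by edgeR). Perp, a tetraspan gene of desmosomes, had 136, 269 and 149 counts in mK4, against 0, 50 and 0 in mK3. Pkp3 had 129, 87 and 127 counts in mK4, against 66, 30 and 12 in mK3. Neither was called (adjusted p = 0.2 for Perp and 0.0964 for Pkp3 by edgeR), though in both the lines did not overlap. Pkp3 was the 1 gene of the list with an unadjusted p under 0.05 in that direction, DESeq2 called 0 of them higher, and edgeR called 2 without mK3 replicate 1 and 1 without mK3 replicate 2. Pkp4, a plakophilin relative also found at adherens junctions, was at 19.8 ± 4.2 CPM in mK4 and 16.6 ± 1.46 CPM in mK3 (adjusted p = 0.319).

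Of 13 other keratin genes, 2 were tested (Krt10 and Krt80), neither was called, and 8 were at 0 in all libraries, including the basal pair Krt5 and Krt14. Krt80, a keratin gene of many epithelia, was at 3.52 ± 0.832 CPM in mK4 and 4.17 ± 0.618 CPM in mK3 (log2 -0.25, adjusted p = 0.477 by edgeR).

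Of 12 other intermediate filament genes, 9 were tested, with 2 higher and 1 lower. Vim, which encodes vimentin, was at 231 ± 10.8 CPM in mK4 and 172 ± 1.28 CPM in mK3 (log2 0.42, adjusted p = 0.00208). Synm, which encodes the vimentin partner synemin, was at 4.26 ± 0.39 CPM in mK4 and 1.82 ± 0.182 CPM in mK3 (log2 1.23, adjusted p = 0.00352). Lmnb1, a nuclear lamin gene, was at 53.6 ± 2.04 CPM in mK4 and 88.1 ± 5.58 CPM in mK3 (log2 -0.72, adjusted p = 0.000807).

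Genes of cytolinkers and hemidesmosomes, which tie filaments to other structures and to the basement membrane, moved in both directions, with 3 of 10 higher and 4 lower. The laminin receptor gene Itga6 was at 25.9 ± 0.866 CPM in mK4 and 11.2 ± 0.48 CPM in mK3, and Cd151, whose tetraspanin product binds such integrins, at 43.5 ± 2.72 CPM in mK4 and 18.8 ± 4.84 CPM in mK3, each with a log2 fold change of 1.21. Dst, a cytolinker gene, was at 229 ± 15.1 CPM in mK4 and 309 ± 25.5 CPM in mK3 (log2 -0.43). The adjusted p of these 3 was 0.00827 (Dst) or less by edgeR.

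Adherens junction genes, the classical cadherin system that plakoglobin also serves, were well expressed in both lines, with 4 of 10 tested higher and 3 lower. Cdh3 (P-cadherin) was at 61.7 ± 3.25 CPM in mK4 and 32.0 ± 3.39 CPM in mK3 (log2 0.95), and Nectin3 at 35.9 ± 5.64 CPM in mK4 and 15.2 ± 3.76 CPM in mK3 (log2 1.24). Ctnnb1 was at 118 ± 3.22 CPM in mK4 and 149 ± 5.47 CPM in mK3 (log2 -0.33), opposite in direction to its relative Jup, and the actin linker gene Vcl fell to 474 ± 16 CPM in mK4, against 1108 ± 3.2 CPM in mK3 (log2 -1.22). The adjusted p of these 4 was 0.00665 (Ctnnb1) or less by edgeR. Of the cadherin genes named as markers of epithelium and mesenchyme, Cdh1 was too low to test and Cdh2 was not called. Cdh1 had 59, 0 and 59 counts in the mK4 libraries, against 0 in each mK3 library. Cdh2 was at 569 ± 24.8 CPM in mK4 and 493 ± 36.8 CPM in mK3 (log2 0.21, adjusted p = 0.0651 by edgeR).

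Of 9 genes whose products bind or process Epcam or are co-expressed with it, 6 were tested, 2 were higher and 2 lower, and Cldn7 and St14 were among those at 0 in all libraries. The tetraspanin gene Cd9 was at 658 ± 36.1 CPM in mK4 and 248 ± 22.7 CPM in mK3 (log2 1.41, adjusted p = 8.73e-05 by edgeR), and Cd44, a hyaluronan receptor gene, at 626 ± 38.5 CPM in mK4 and 1351 ± 47.9 CPM in mK3 (log2 -1.11, adjusted p = 7.05e-05). The Kunitz protease inhibitor gene Spint2 had 937, 865 and 1100 counts in mK4, against 0, 12 and 0 in mK3 (adjusted p = 0.00407). Its relative Spint1 had 26, 0 and 0 counts in mK4, against 639, 399 and 333 in mK3 (adjusted p = 0.0334 by edgeR). The Spint1 call was lost without mK4 replicate 2 or 3 or any 1 mK3 library, with adjusted p from 0.0578 to 0.0932 in those fits.

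Transcription factor genes known to act on epithelial genes were partly higher in mK4, with 4 of 10 tested higher (Elf3, Ehf, Tfap2a and Grhl1) and 2 lower. Their median log2 fold change was 0.66, beside 0.02 over all tested genes. That median lay between the values of Grhl2 (0.63, SE 0.74) and Ovol1 (0.69, SE 0.81), neither of them called. Elf3, an epithelial ETS factor gene, had 404, 374 and 682 counts in the mK4 libraries, against 0 in each mK3 library, at least 137-fold higher against a floor of 3 counts per library (adjusted p = 0.000568 by edgeR). Ehf, of the same family, had 249, 243 and 451 counts in the mK4 libraries, against 0 in each mK3 library, at least 88.7-fold higher against the same floor (adjusted p = 0.000838). Trp63, a regulator of stratified epithelium, was at 0.914 ± 0.223 CPM in mK4 and 3.09 ± 0.554 CPM in mK3 (log2 -1.75, adjusted p = 0.00463). Klf4 was at 2.24 ± 0.315 CPM in mK4 and 3.91 ± 0.591 CPM in mK3 (log2 -0.80, adjusted p = 0.029), a call lost without mK4 replicate 1 or 3 or mK3 replicate 1 or 3 (adjusted p 0.0742 to 0.0865). Grhl3, Ovol2 and Tfap2c were at 0 in all libraries.

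Repressors of epithelial genes also split, with 2 of 6 higher in mK4 and 3 lower. The Snail-family gene Snai2 was at 1.14 ± 0.143 CPM in mK4 and 22.1 ± 2.47 CPM in mK3 (log2 -4.28), and Twist1 had 0 counts in each mK4 library, against 1222, 1336 and 1380 counts in the mK3 libraries, at least 451-fold lower in mK4 against the floor. Zeb1 was at 48.2 ± 2.69 CPM in mK4 and 27.2 ± 1.00 CPM in mK3 (log2 0.83), and Twist2 at 277 ± 12.2 CPM in mK4 and 165 ± 5.02 CPM in mK3 (log2 0.75). The adjusted p of these 4 was 0.0006 (Zeb1) or less by edgeR.

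Of 10 genes whose products bind, fold or turn over keratins, 9 were tested, 5 were lower in mK4 and 4 were not called. The 14-3-3 gene Ywhaz was at 446 ± 21.8 CPM in mK4 and 800 ± 23.9 CPM in mK3 (log2 -0.84, adjusted p = 0.000135), and the Hsp70 gene Hspa1b, which has the near-identical copy Hspa1a so that the split of reads between them is uncertain, at 1.10 ± 0.153 CPM in mK4 and 3.12 ± 0.585 CPM in mK3 (log2 -1.50, adjusted p = 0.00457).

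**Figure D4:**
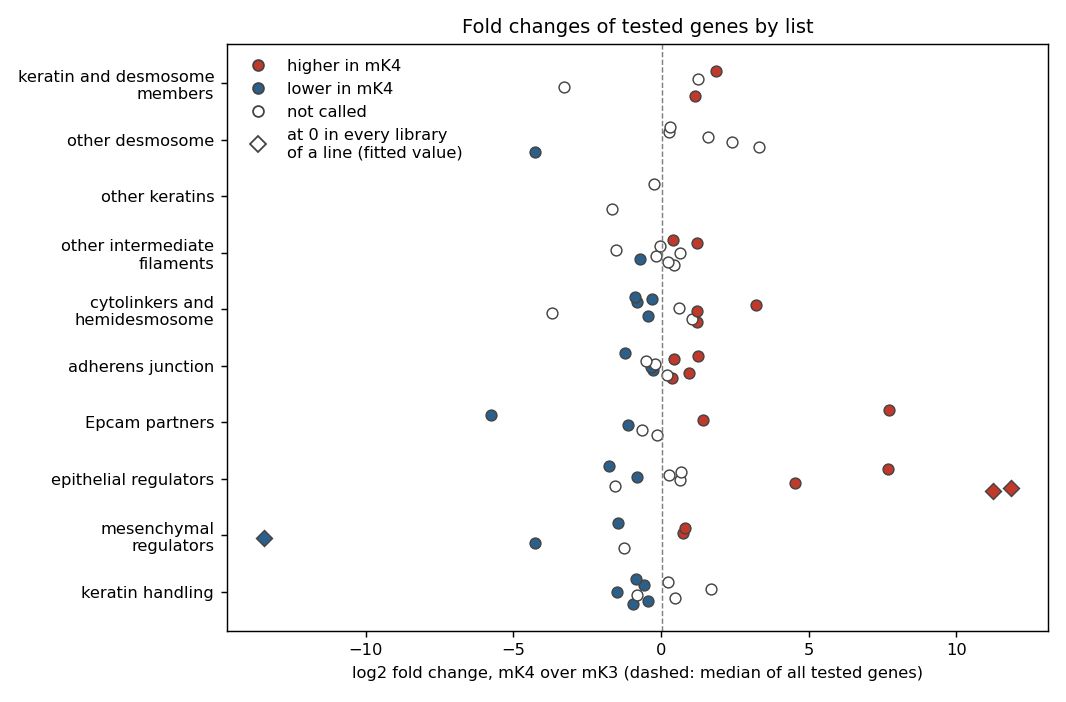
Log2 fold change of mK4 over mK3 for every tested gene of the 10-gene set and of 9 related lists, 1 point per gene, red where called higher in mK4, blue where called lower and white where not called, with diamonds for genes at 0 in every library of a line, whose fitted value is no bound. Pkp2 and Jup are the 2 red points of the keratin and desmosome set, and the epithelial and repressor gene lists hold points on both sides of 0.

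The label of mK4 as mesenchyme that has differentiated towards epithelium was set beside lists of cell type markers. The list made of the 10 members is no separate check. Of 8 kidney epithelium markers, 7 were tested, 6 were higher in mK4 and 1 was not called, and their summed level was 1790 to 1870 CPM in mK4 and 1.30 to 2.09 CPM in mK3. Cdh6 alone averaged 1668 CPM in mK4, followed by Cdh16 at 84.2 CPM, Pax8 at 39.4 CPM and Pax2 at 30.0 CPM, and Emx2 was the tested marker not called. The 10 members, also kept as a simple epithelium list, summed to 101 to 119 CPM in mK4 and 25.2 to 44.8 CPM in mK3. Nearly all of that was Pkp2 and Jup, the 2 called higher, with 0 lower. Epcam, Krt8 and Krt18 of that list, and Cdh1 of the adherens junction list, were at or near 0 in mK4. Fibroblast markers summed to 80.5 to 88.8 CPM in mK4 and 2390 to 2850 CPM in mK3, with 6 of 7 lower in mK4. Mesothelium markers, of which Krt19 is one, summed to 9.47 to 12.2 CPM in mK4 and 1.06 to 2.18 CPM in mK3, with Upk1b at 0 throughout. Nearly all of the mK4 sum was Msln, at 10.6 CPM in mK4 and 0.433 CPM in mK3, while Krt19 was lower in the mK4 libraries and the other 4 markers were too low to test. Stratified epithelium markers summed to 0.906 to 1.65 CPM in mK4 and 2.79 to 4.0 CPM in mK3, with Krt5, Krt14 and Ivl at 0, and leukocyte markers to 1.2 to 1.67 CPM in mK4 and 1.08 to 1.84 CPM in mK3. Endothelial markers summed to 7.37 to 8.17 CPM in mK4, nearly all Cdh5, and 3.60 to 4.63 CPM in mK3. Cdh5 was higher in mK4, whereas Tek and Kdr were lower, with 0 counts in each mK4 library, against 1.78 ± 0.392 CPM for Tek and 1.44 ± 0.31 CPM for Kdr in mK3 (adjusted p = 0.000652 for Tek and 0.000789 for Kdr by edgeR). The part of these cell types in the members' values was not tested.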

How the data were processed

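RNA was measured in 3 mK4 and 3 mK3 libraries and open chromatin in 1 ATAC-seq library of each line. The authors deposited raw read counts per gene, from strand-specific libraries of RNA depleted of ribosomal RNA per the labels. The submitters' processing notes name MACS3, deepTools, Bowtie2, bedtools and SAMtools, HTSeq 2.0.2 with STAR 2.7.10a, and the mm10 build, with no roles. How reads matching several genes were handled is not given there. The authors deposited 1 peak list per line, with fold over background and -log10 q per peak.

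Library totals were 137559391 to 152952351, of which 133899125 to 146187601 counts fell on genes. Only counts of genes that passed the low-count filter entered the tests. Genes were kept by edgeR's filterByExpr (minimum count 10), scaled by TMM, which makes the CPM used here, and tested with edgeR 4.0.16 (R 4.3.3, quasi-likelihood F test, Benjamini-Hochberg over all 20405 tested genes, threshold 0.05). Replicates in a line differed by more than sampling noise. Peaks within 5 kb of a gene were assigned to it, and peaks sharing at least 1 bp were called partners. Starts and promoters came from RefSeq (GRCm38.p6). The alternatives were DESeq2 1.42.0, no TMM, other low-count filters, a replicate block, each library left out, and other peak settings. The code was tested on simulated data.

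The members and lists were chosen with earlier results of these data known. All 10 members were named, with up to 2 called genes per direction from each list by smallest adjusted p, and 5 genes most like Pkp2, except that some results are not reported here. Perp, Pkp3, Pkp4, Krt80, Cdh1, Cdh2 and Hspa1a were named in addition after their values had been seen.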

Additional observations from a re-analysis of the deposited data

How the results depend on the processing

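Pkp2 and Jup were called higher in mK4 under all 11 alternatives, with log2 fold changes of 1.65 to 2.03 for Pkp2 and 0.94 to 1.29 for Jup. Members called lower numbered 1 with DESeq2 and 0 to 1 with a library left out, the 1 being Krt19 (log2 -3.32 with DESeq2, and -3.77 to -2.70 with a library left out). Krt7 ranged from -0.03 to 1.74 with a library left out, reversing without mK4 replicate 2. The replicate numbers did not pair the libraries (correlations of same-numbered deviations -0.0242, 0.0106 and 0.0112), and with the replicate block 3281 genes were called higher and 3129 lower, 2 members higher, 1 epithelial regulator lower and 3 keratin-handling genes lower. Without TMM the median of all tested genes was 0.13, and 1 epithelial regulator was lower. With at least 1 CPM required in all 6 libraries, which tests fewer genes, calls were 0 lower for other desmosome genes, 1 higher for Epcam partners, 0 higher and 1 lower for epithelial regulators, and 1 lower for repressors. Epcam partners had 4 lower with DESeq2 and 1 with no low-count filter. With a library left out, other desmosome genes had 0 to 2 higher, cytolinkers 2 to 4 lower, Epcam partners 1 to 2 lower and epithelial regulators 1 to 2 lower. The causes were not tested. Within 5 kb, 4 members had 8 peaks in mK4 and 3 members had 4 in mK3. At a -log10 q of at least 10, mK4 had 5 peaks. Within 20 kb, counting a peak once for each member it lies near, 8 members had 22 peaks in mK4, 12 with a partner, and 7 members had 15 in mK3, 11 with a partner. Of 26 list genes named by rule, 24 kept their call in all alternatives that tested them, and Spint1 and Klf4 lost it in some. Depth limits the genes near 3 counts a library, for which neither presence nor a difference can be read.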
